A study of Rattus norvegicus with 9 samples.

Results

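Genes of the NF-kB signaling route were followed in the retina of rats made diabetic with streptozotocin (STZ). The set held 10 genes, namely the brakes Tnip1, Tnip2, Tnfaip3 and Nfkbia, the subunits and co-factor Nfkb1, Nfkb2, Rela and Bcl3, and the receptors Tnfrsf1a and Tnfrsf12a. Members were taken as all probes whose annotated symbol was one of these names. Of the 10 genes 8 had a probe, 1 each, among 12978 genes under a symbol and 22226 probes. No probe carried the symbol Tnfaip3 or Bcl3, so these genes are not described by signal. The members had been selected on values of this diabetic against control contrast, the lower signal of Tnip1 and the higher signal of Tnfrsf12a being known by then, so their differences are given as a description, with no p-value for a member.

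NF-kB is a family of transcription factors that pair up in the cytoplasm and are held there by inhibitor proteins such as IkB-alpha, the product of Nfkbia. Ligands of the TNF family bind receptors at the cell surface, kinases then mark the inhibitor for destruction, and the freed dimer enters the nucleus and switches on genes of inflammation and cell survival. Several of these target genes, Nfkbia and Tnfaip3 among them, encode brakes that shut the signal off again. In the retina the pathway is known mainly from work on Müller glia, microglia and vessel cells in inflammation and diabetes.

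All animals were male Sprague-Dawley rats. The diabetic group (labelled STZ, n = 4) had received STZ, a toxin of the insulin-producing cells of the pancreas, at 65 mg/kg into the peritoneum, and the control group (Control, n = 5) the citrate vehicle alone. Retinas were taken 3 months later, ages are not given in the sources used here, and each RatRef-12 BeadChip array held the RNA of 1 rat. A further diabetic array (1) had been dropped by the authors for its quality. Controls 1, 2 and 3 were run on BeadChip 1, and the remaining controls, 4 and 5, shared BeadChip 2 with all 4 STZ arrays. Differences in a whole retina can come from fewer cells of a type or from less RNA per cell, and these cannot be told apart.

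The median signal of an array was 70.0 to 84.4 in controls and 76.9 to 87.9 in diabetic rats. All 4 rod markers with a probe were detected on all 9 arrays, with a summed normalized intensity of 37058 to 38747 in controls and 32929 to 34857 in diabetic rats, and 1 of the 4 passed an adjusted p of 0.05, lower. The sum over 4 Müller glia markers was 14630 to 16348 in controls and 20799 to 23508 in diabetic rats, with 1 of the 4 past that threshold, higher. All 4 ganglion cell markers passed it, lower. Of 9 microglia and leukocyte markers with a probe 6 were tested and 1 passed, higher, Ptprc was detected on 0 arrays, and the sums were 1550.2 to 1822 against 1695 to 2004. Of 5 endothelial and pericyte markers 2 were tested and limma called 0 (1 at an unadjusted p under 0.05). Tek, Rgs5 and Cdh5 were detected on 0 arrays, and the sums were 1375 to 1579 against 1533 to 1863. At an unadjusted p under 0.05 in either direction there were 3 rod, 3 Müller glia and 3 microglia and leukocyte markers. The share of all probes at that threshold is not given here, so nothing is read from the unadjusted counts. Pigment epithelium markers (2 tested, 0 called) summed to 463 to 2414 against 436 to 1365. Blood markers (2 tested, 0 called) summed to 1611 to 4018 against 1275 to 3120. Lens fibre markers, crystallins among them, summed to 1471 to 4894 in controls and 32382 to 57647 in diabetic rats, with 5 of 5 higher. Whether these transcripts came from lens or retina was not tested. The part of any of these cell types in the values below was not tested either.

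Each member with a probe was read by a single oligonucleotide, and a signal speaks only for transcripts that hold that stretch. Sequences, each of 50 bases, could be matched for 3 members alone, in the study's list of differentially expressed genes. These 3 probes, which are also those behind the largest differences, are shown. They are given 5′ to 3′ in lower case as designed by the manufacturer.
Tnip1 probe: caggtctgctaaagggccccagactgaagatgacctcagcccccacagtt
Tnfrsf1a probe: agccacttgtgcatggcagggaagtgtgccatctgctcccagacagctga
Tnfrsf12a probe: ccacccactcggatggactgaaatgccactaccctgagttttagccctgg
These 3 probes are alike in base composition, with 29, 29 and 28 of 50 bases being G or C.

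The promoters of the members were read next, since several members are themselves known targets of NF-kB. Windows of 300 bases, from 250 before to 50 after the annotated gene start, came from RefSeq (build GRCr8), and all 10 members had one. They were searched on both strands for the 10-letter kappa B consensus, the general form of the sequence that NF-kB dimers bind. A match was present in 6 of the 10 windows, and in 2515 of all 33469 rat promoter windows (7.51%). Those with a match were Tnip1, Tnfaip3, Nfkbia, Nfkb1, Nfkb2 and Bcl3, and those without were Tnip2, Rela, Tnfrsf1a and Tnfrsf12a. A match is a run of letters and not a proven site. Promoters of Tnip1, Nfkbia and Tnfrsf12a are printed as a brake that was lower in diabetes, a brake that was not, and a receptor that was higher. Capitals mark the matches.
Tnip1 promoter, chr10:39584912-39585211, minus strand: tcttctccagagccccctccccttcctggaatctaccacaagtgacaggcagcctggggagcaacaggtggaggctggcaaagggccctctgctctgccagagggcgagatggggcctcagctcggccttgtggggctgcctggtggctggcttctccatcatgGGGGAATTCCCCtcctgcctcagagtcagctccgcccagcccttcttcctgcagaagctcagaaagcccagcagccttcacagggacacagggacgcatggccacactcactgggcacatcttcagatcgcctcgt
Nfkbia promoter, chr6:78597023-78597322, minus strand: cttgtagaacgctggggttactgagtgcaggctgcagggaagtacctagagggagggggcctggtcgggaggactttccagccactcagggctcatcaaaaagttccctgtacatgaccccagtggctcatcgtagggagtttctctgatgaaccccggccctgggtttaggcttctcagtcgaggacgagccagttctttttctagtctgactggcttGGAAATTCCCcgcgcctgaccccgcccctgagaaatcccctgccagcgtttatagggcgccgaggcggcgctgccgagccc
Tnfrsf12a promoter, chr10:13213599-13213898, minus strand: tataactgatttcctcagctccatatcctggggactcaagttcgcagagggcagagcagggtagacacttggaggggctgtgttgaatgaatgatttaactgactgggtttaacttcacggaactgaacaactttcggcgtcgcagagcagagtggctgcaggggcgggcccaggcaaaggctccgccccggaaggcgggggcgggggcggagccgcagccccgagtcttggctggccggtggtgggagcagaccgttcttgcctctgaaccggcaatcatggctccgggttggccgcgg
The Tnip1 window held 3 overlapping matches that began at -86, -85 and -84, counted with the first base of the gene as 1. The Nfkbia window held 1 match at -31 (GGAAATTCCC). Tnfaip3 had 3, at -170 (GGGACACCCC), -67 (GGAAAGTCCC) and -55 (GGAAATCCCC). Nfkb2 had 1 at -20 (GGGACTTTCC), Bcl3 1 at -38 (GGGAAGTCCC) and Nfkb1 1 just inside the gene at 4 (GGGAATTTCC). All matches but the first of Tnfaip3 lay between -86 and 4.

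**Figure D1:**
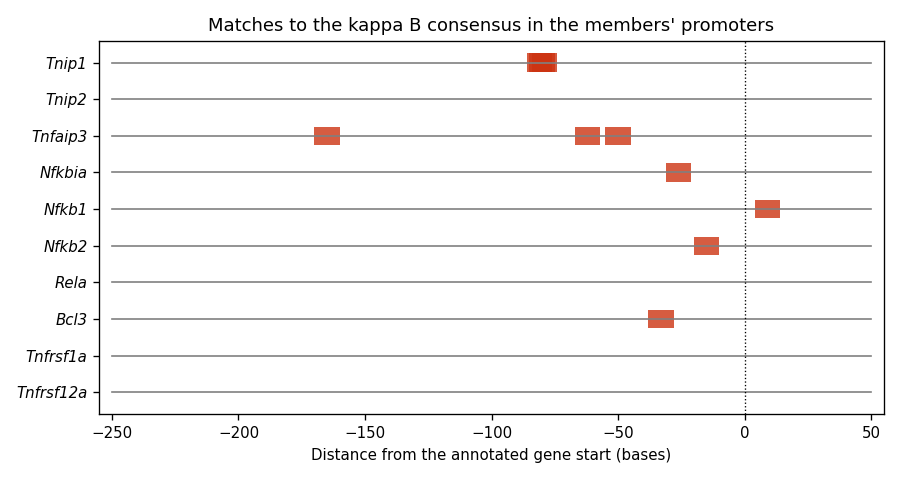
Position of each match to the kappa B consensus (red blocks, 10 bases wide) in the promoter windows of the 10 members, by distance from the annotated gene start in bases. Matches are seen in 6 members and in none of the windows of Tnip2, Rela, Tnfrsf1a and Tnfrsf12a.

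Tnip1 encodes ABIN1, a ubiquitin-binding partner of A20 (the product of Tnfaip3) that holds NF-kB signaling down. Of the members it had the largest difference. Its deposited signal, the mean over the beads of the probe, was 6945, 5642, 6017, 5608 and 5740.45 on Controls 1 to 5. On STZ 1 to 4 it was 3904, 3343, 3063 and 1533. Every diabetic retina was below every control, and STZ 4 was lowest by far. On the normalized log2 scale the level was 12.57 ± 0.25 (SD, n = 5) in controls and 11.30 ± 0.58 (SD, n = 4) in diabetic rats, a difference of -1.27 (SE 0.25), or 2.42-fold lower. Controls on BeadChip 1 averaged 12.74 and those on BeadChip 2 12.32, and within BeadChip 2 the difference was -1.03. It lay between -1.41 and -0.999 when each array was left out in turn, the smallest being without STZ 4.

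Tnip2 encodes ABIN2, a relative of ABIN1 that also binds A20. Its signal was 246, 218, 227, 298 and 333 in controls and 387, 333, 287 and 385 in diabetic rats. The groups overlapped, with Control 5 above STZ 3 and level with STZ 2. Normalized levels were 7.73 ± 0.12 (SD, n = 5) and 7.95 ± 0.21 (SD, n = 4), a difference of 0.22 (SE 0.10), in the opposite direction to Tnip1. It was 0.14 within BeadChip 2, and 0.14 without STZ 4.

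Nfkbia, the gene of IkB-alpha, is the classical feedback target of NF-kB and is often read as a sign of its activity. Its signal was 2944, 2842, 2658, 3300.1 and 2919.85 in controls and 3714, 3392, 2919 and 2845 in diabetic rats. The 2 groups covered much the same range. After normalization the levels were 11.50 ± 0.14 (SD, n = 5) and 11.51 ± 0.21 (SD, n = 4), a difference of 0.01 (SE 0.11). The sign of so small a difference was kept in 12 of 17 alternative settings that gave new values, which ran from -0.06 to 0.12.

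Among the DNA-binding subunits, Rela encodes p65, which carries the activation domain of the common dimer. Its signal was 209, 181, 188, 261 and 249 in controls and 331, 228, 240.1 and 234 in diabetic rats. STZ 1 was highest, and the other 3 diabetic arrays lay above Controls 1 to 3 and below Controls 4 and 5. The difference was 0.07 (SE 0.04), but 0.02 within BeadChip 2 and 0.03 without STZ 1. Nfkb2 encodes p100, which is cut to p52 in the non-canonical branch that Tnfrsf12a can engage. It gave 100.2, 92.5, 80.0, 133 and 96.3 in controls and 136, 141, 118 and 113 in diabetic rats. Control 4 lay above 2 of the diabetic arrays, and the difference was 0.07 (SE 0.03), or 0.04 without STZ 2.

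Nfkb1 encodes p105, the precursor of p50. Its probe gave 68.6, 59.9, 64.1, 60.8 and 82.0 in controls and 79.1, 72.9, 72.3 and 74.5 in diabetic rats. These values sit at background, since the detection p was under 0.05 on 1 of 5 control arrays and 0 of 4 diabetic arrays. Nfkb1 was therefore not tested, and no fold is given.

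Tnfrsf1a encodes TNFR1, the receptor through which TNF reaches both NF-kB and cell death. Its signal was 139, 130.0, 146, 157 and 159 in controls and 246, 216, 309 and 236 in diabetic rats. The 2 groups did not overlap, and STZ 3 was highest. Normalized levels were 7.30 ± 0.03 (SD, n = 5) and 7.60 ± 0.13 (SD, n = 4), a difference of 0.30 (SE 0.06). It was also 0.30 within BeadChip 2, and 0.24 to 0.32 when single arrays were left out.

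Tnfrsf12a encodes Fn14, the receptor of TWEAK (Tnfsf12), which is known to be induced in injured tissue. The signal was 128, 109, 99.5, 122 and 122 in controls and 246, 202, 242 and 218 in diabetic rats. The lowest diabetic array lay well above the highest control. Levels were 7.20 ± 0.03 (SD, n = 5) and 7.52 ± 0.04 (SD, n = 4), a difference of 0.33 (SE 0.03) overall and 0.34 within BeadChip 2. Both receptors thus differed by about as much within the BeadChip that held both groups as over all arrays.

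**Figure D2:**
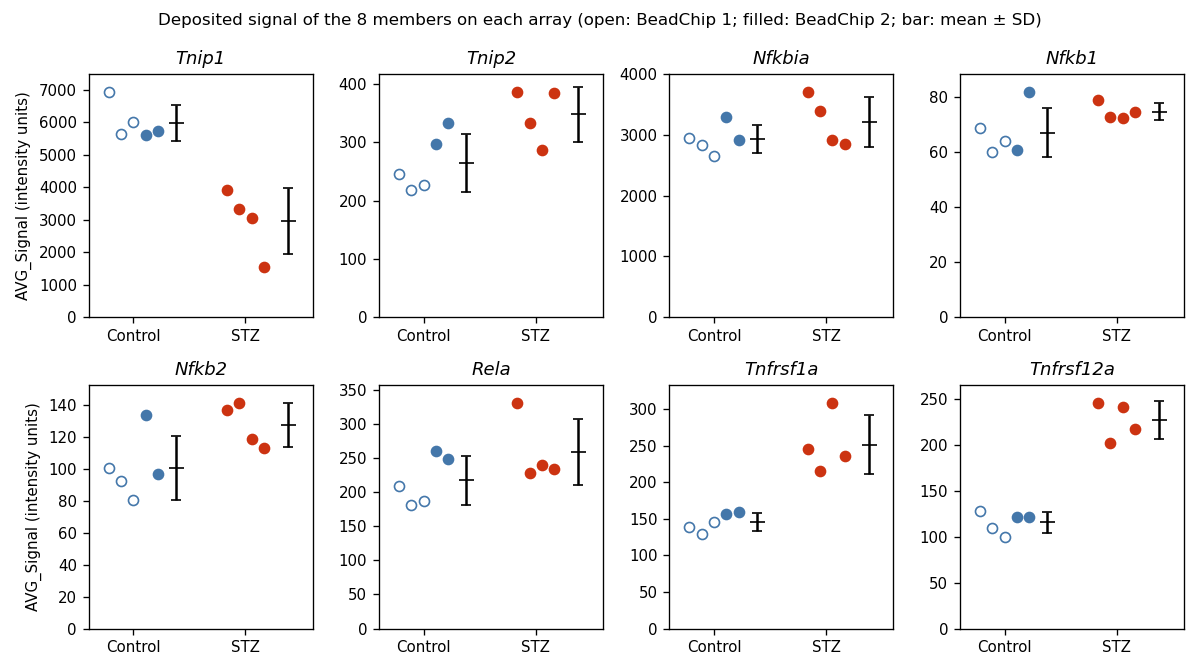
Deposited AVG_Signal (linear intensity units, axis from 0) of the 8 members with a probe in 5 Control (blue) and 4 STZ (red) retinas, 1 point per array, open for BeadChip 1 and filled for BeadChip 2, with the mean and SD beside each group. Tnip1 lies between 1533 and 3904 in STZ and at 5608 or above in every control, and Tnfrsf1a and Tnfrsf12a show the opposite order with no overlap.

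The size of a faint member's difference depended on the background correction. The normexp model, which removes background as estimated from the detection p, put the SD of the background at 141 to 215 on the 9 arrays. The signals at detection p of 0.5 and 0.16 lay only 10.0 to 12.4 apart. A wider background compresses faint probes by construction, so their differences on the main scale are small values. With the background mean and SD taken from those signals instead, an alternative chosen after seeing the data, Tnfrsf12a differed by 1.18 (SE 0.11; 2.26-fold) and Tnfrsf1a by 0.81 (SE 0.12; 1.76-fold). On the authors' processed intensities the differences were 0.85 (SE 0.08; 1.81-fold) for Tnfrsf12a and 0.63 (SE 0.10; 1.54-fold) for Tnfrsf1a. Nfkb2 differed by 0.45 (SE 0.18) and 0.28 (SE 0.11) on these scales, and Rela by 0.14 and 0.11. The bright Tnip1 and Nfkbia hardly moved, at -1.24 and 0.01 with the alternative background. Directions were the same on all 3 scales.

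**Figure D3:**
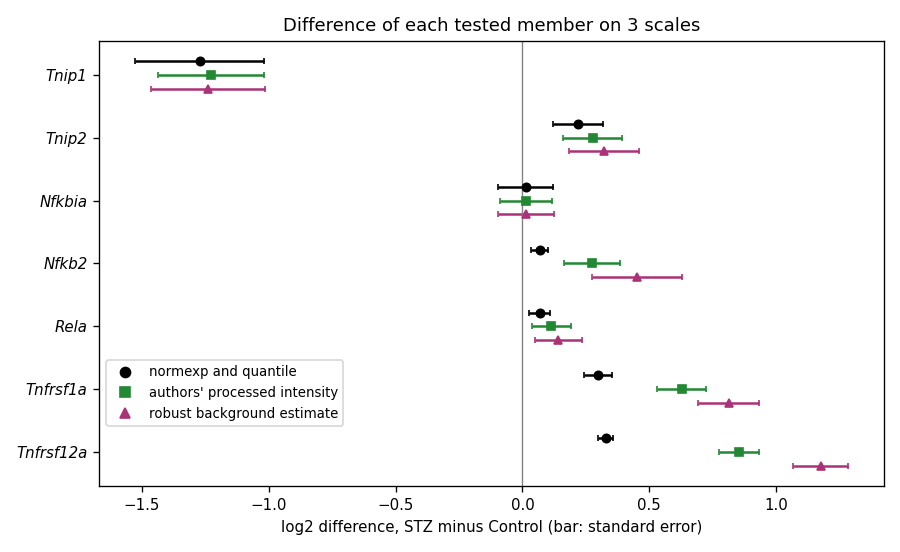
Log2 difference (STZ minus Control) of the 7 tested members on the main scale (circles), on the authors' processed intensities (squares) and with the robust background estimate (triangles), with standard errors. Tnip1 is the only member well below 0, at -1.27, -1.23 and -1.24, and the receptors are spread from 0.30 to 1.18 by the choice of scale.

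In the fit across all 10261 tested probes, 4.84% passed an adjusted p of 0.05 higher, 4.45% lower and 9.3% in either direction, while groups did not overlap in 6.6% (higher) and 6.41% (lower). Of the 7 members in that fit, 3 were past it and did not overlap, Tnip1 lower and the receptors higher. As members were selected on this same contrast, nothing is read from their count. The count fell to Tnfrsf12a alone with the BeadChip as a block or under median scaling, and to 0 within BeadChip 2. Tnip1 dropped out without Control 3, without STZ 3 and by the methods' test after adjustment, and Tnfrsf1a under the replicate block.

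Of the ligands Tnf and Tnfsf12, a probe under the symbol was found for Tnf alone. Tnf, a ligand of Tnfrsf1a, gave 60.5 to 71.4 in controls and 65.9 to 77.9 in diabetic rats and was detected on 0 of 9 arrays, so a difference was not detectable at this signal. Among 18 TNF ligands 13 were on the array and 1 was tested, Tnfsf13 (APRIL), at 0.29 (SE 0.11; adjusted p = 0.132).

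Other genes of the pathway were taken from 7 lists of 120 genes, of which 91 had a probe and 47 were tested by limma. Of these 7 passed higher and 0 lower, or 14.9% against 9.3% of all tested probes. The 7 include Ccl2, which was detected on diabetic arrays alone. At an unadjusted p under 0.05, 12 were higher and 1 lower. The lists, like the members, were chosen with earlier results of these data known. Nothing is therefore read from the counts of calls in them. The median difference of the 47 was 0.02, against -0.01 for all tested probes. Most of the machinery between receptor and nucleus did not pass. As for the faint members, the main scale gives small differences for the faint genes among these. With the alternative background the same 7 genes passed. Of 5 tested kinases 0 passed, and Map3k7 (TAK1), with the smallest p, was at -0.03 (SE 0.03; adjusted p = 0.566), or -0.13 on the authors' processed intensities. Of 4 other brakes 0 passed, the smallest p being that of Pias1, which restrains DNA binding by p65, at -0.23 (SE 0.09; adjusted p = 0.148). Nfkbib, a second IkB and the 1 tested gene among 6 further NF-kB and IkB proteins, was at -0.11 (SE 0.09; adjusted p = 0.479). Of 6 other TNF receptors 0 passed, with Ngfr (p75NTR) at 0.40 (SE 0.14; adjusted p = 0.104). At an unadjusted p under 0.05 these lists held 0 kinases, 1 brake (lower), 0 NF-kB and IkB proteins, 2 receptors (higher) and 1 ligand (higher). The adaptors and ubiquitin ligases held 2 (higher) and the targets of NF-kB 7 (higher). The share of all tested probes at that unadjusted threshold is not given here, so nothing is read from these counts. Of 12 adaptors and ubiquitin ligases 1 passed. This was Fadd, the adaptor that links TNFR1 to caspase-8, at 0.14 (SE 0.03; adjusted p = 0.0191), with a signal of 113 to 158 in controls and 177 to 209 in diabetic rats. As for the faint members, the main scale gave a small value, and Fadd differed by 0.37 on the authors' processed intensities and by 0.52 with the alternative background.

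Targets of NF-kB held the other 6 calls, 6 of 18 tested (33.3%, against 9.3% of all tested probes), with a median of 0.08. The 6 and this share include Ccl2, which entered the test through the diabetic arrays alone. Members were kept out of this list. Of the tested members with a kappa B match, Nfkbia (0.01) and Nfkb2 (0.07) did not pass and Tnip1 (-1.27) was lower. Ier3, a survival gene of the early response, rose by 0.75 (SE 0.08; adjusted p = 0.00276), with a signal of 269 to 394 in controls and 460.0 to 699 in diabetic rats. Lcn2, an iron-carrier binding protein of the acute phase, rose by 1.27 (SE 0.29; adjusted p = 0.0314), from 314 to 745 in controls to 843 to 1184 in diabetic rats. Cfb, complement factor B, rose by 0.75 (SE 0.18; adjusted p = 0.0380). Groups of Cfb overlapped in deposited signal, at 896 to 1598 and 1577 to 2374, and not after normalization. Icam1, the adhesion molecule for leukocytes, rose by 0.37 (SE 0.07; adjusted p = 0.0189) and Psmb9, an immunoproteasome subunit, by 0.30 (SE 0.05; adjusted p = 0.0140). Both were faint, and on the authors' processed intensities Icam1 differed by 0.77 and Psmb9 by 0.62. With the alternative background they differed by 1.01 and 0.80. Ccl2, the monocyte chemokine MCP-1, was detected on 0 of 5 control and 4 of 4 diabetic arrays, at 54.4 to 68.6 and 104 to 368. It was at least 1.54-fold higher, or at least 3.23-fold on the authors' processed intensities, taking each control at the lowest detected signal of its array. Ccl2 entered the limma test through the diabetic arrays alone, so nothing is read from its call (adjusted p = 0.0463). The call of Ccl2 was lost at offset 50, with no detection filter, under median scaling, under either block and by the methods' test after adjustment. Those of Lcn2 and Cfb were also lost with no detection filter, under median scaling and by the methods' test after adjustment. Median scaling lost Ier3 and Fadd too.

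**Figure D4:**
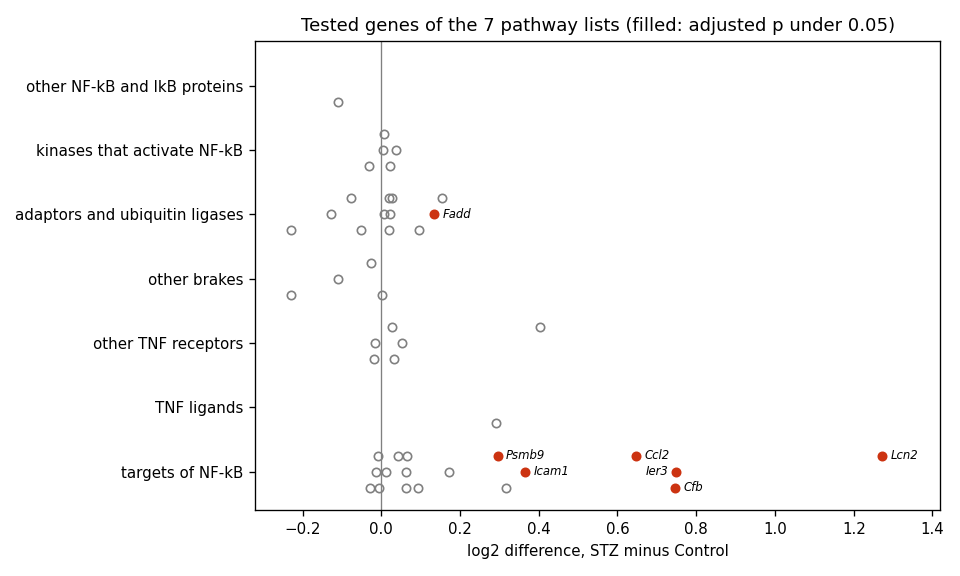
Log2 difference (STZ minus Control) of the 47 tested genes of the 7 pathway lists on the main scale, 1 point per gene, filled and named where the adjusted p was under 0.05. The 6 filled points among targets run from 0.30 (Psmb9) to 1.27 (Lcn2), Fadd is the other filled point, and none lies below 0. Ccl2, a filled target, was detected on diabetic arrays alone.

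The pathway calls leaned on the full set of arrays. Ier3, Psmb9 and Fadd passed in all 9 fits that left out 1 array. Icam1 was lost without Control 4 or STZ 3, Lcn2 passed only without Control 5, Ccl2 only without STZ 4, and Cfb only without Control 5 or STZ 4. With the BeadChip as a block 1 of the 7 passed, Ier3 (0.68, adjusted p = 0.0324). Within BeadChip 2 limma called 0 of 49 tested pathway genes. At an unadjusted p under 0.05, 7 of those 49 were higher and 0 lower, and these need not be the 7 genes called above. The share of all probes at that threshold is not given here, so nothing is read from this count.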

How the data were processed

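RNA of 9 retinas (5 Control, 4 STZ) was measured on RatRef-12 BeadChips. The authors deposited, per the file headers, the mean bead intensity of each probe from GenomeStudio 1.0.6, on a linear scale before any normalization, and a detection p-value per probe. The deposited series matrix holds the authors' quantile normalized intensity of the same arrays.

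The analysis used limma 3.58.1 in R 4.3.3, and sequences and figures in Python 3.11.15 with matplotlib 3.10.9. Background was removed by normexp with the detection p (offset 16), and values were taken to log2 and quantile normalized. A probe was tested if its detection p was below 0.05 on every array of either group, which left 10261 probes for a linear model with group as its term, empirical Bayes variances, two-sided tests and Benjamini-Hochberg adjustment over all tested probes. The script was tested on simulated data. The number of arrays limits the precision. The sources call the arrays separate rats, 1 array each.

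Members and lists were chosen with earlier results of these data known. Named genes are the members, list genes past the adjusted p, the smallest adjusted p of each list with none, Tnf and Tnfsf12. A gene with several probes was read by its brightest. Symbols are those of the array annotation, with 13192 probes under 1 symbol and 9034 under none. Probe sequences came from the study's supplementary list of differentially expressed genes, matched by identifier or accession for 3 members, with none of its values used. Alternatives changed the background, offset, scaling, detection filter, BeadChip, pairing, arrays, test and threshold.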

Additional observations from a re-analysis of the deposited data

Results flagged for a closer look

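In 2 of 40 groups examined (20 named genes in each of 2 conditions), 1 array stood apart from the rest of its group by Dixon's criterion, which chance alone meets in about 1 of 20 groups. Tnip2 on Control 5, at 7.93 on the log2 scale, lay above the other controls by 0.765 of the range of its group. Nfkb2 on STZ 2, at 7.28, lay above the other diabetic arrays by 0.862 of the range. Without Control 5 the difference of Tnip2 was 0.27 (0.14 without STZ 4), and without STZ 2 that of Nfkb2 was 0.04.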

How the results depend on the processing

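Over all probes 954 passed (497 higher, 457 lower). This count was 77 (67 higher, 10 lower) under median scaling, 578 with no detection filter, 179 with the BeadChip as a block, 11 within BeadChip 2, 535 by the methods' test after adjustment, and 472 to 1015 when each array was left out. The count of pathway genes called higher, 7 in the main fit, became 2, 4, 1, 0 and 4 in the same order. With arrays left out it was 3 to 6, with 4 without Control 1, Control 2, Control 3 or STZ 3 and 3 without Control 4. These counts include genes outside the 7, namely Cxcl10 without STZ 1, Ngfr without STZ 2 and Myd88 without STZ 3. Deviations of arrays with the same replicate number correlated at -0.08, 0.16, -0.07 and 0.15. For replicate 2 alone the best match was the array of the same number. These 4 values are too few to tell whether the numbers paired the rats. The replicate block gave 257 probes and 3 pathway genes. No pathway gene was called lower under any of the alternatives run, limma's or the methods' test. The alternative background estimate, added after seeing the data, gave 939 probes and the same 7 pathway genes. Among the 7 tested members, signs were kept in all 17 alternatives that gave new values, except that of Nfkbia. The causes of these changes were not tested. Probes near background, Nfkb1 and Tnf among them, are limited by signal.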
